A study of Mus musculus with 2 samples.

Results

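CA cytosines are cytosines followed by adenine on their own strand. In the map of 5-hydroxymethylcytosine (5hmC) of E14 cells, an established line of mouse embryonic stem cells, 407560 of the 13025343 listed cytosines were CA. The members described here are the 399724 CA cytosines of chromosomes 1 to 19, chosen by their listed dinucleotide and chromosome, outside 5 windows of 100 kb on chromosomes 2, 6, 9 and 11. Those windows held 3214 CA sites with a mean of 276.7 reads, and keeping them would raise the mean per CA site from 7.70 to 9.85. Apart from the listing itself, where the lowest count is 2, no read count of a single site was used to choose the members. The windows left out were set apart with earlier results of these data known. Their high mean is therefore not an independent observation. The series holds 2 libraries of 1 group, both of genomic DNA from E14 cells at passage 12, and no sample without 5hmC or without glucosylation. The labels do not say whether the libraries came from separate cultures. The deposited table has 1 column of read counts that names neither library. It was taken as a table of the whole series, although how the libraries were joined is not stated. It gives no replicate error, no test between samples was possible, and spread is given over the 19 autosomes. Coordinates are 1-based and of build mm9.

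DNA methylation in mammals is mostly placed on CG, where the opposite strand carries a cytosine at the same step and both strands can be modified. The maintenance methyltransferase DNMT1 copies it onto new strands. Methylation at CH, where H is A, C or T, is placed mainly by DNMT3A and DNMT3B, is known in embryonic stem cells and neurons, and falls most often on CA. A CA step reads TG on the other strand, so the opposite strand has no cytosine at that step to carry the same mark. TET enzymes oxidise 5-methylcytosine to 5hmC. In AbaSI sequencing the 5hmC is first glucosylated, and the endonuclease AbaSI then cuts a short way 3' of it, between the modified base and a second cytosine that lies on the opposite strand on the far side of the cut. A cut therefore points to a pair of cytosines, and the listing of CA sites has to be read with that geometry in mind.

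CA was the most frequent CH context in the table. It made up 52.3% of the 764060 autosomal CH sites (exact 95% interval 52.2 to 52.4), against 34.1% for CT and 13.5% for CC. Chromosome 4 had the lowest share, 51.6%, and chromosome 10 the highest, 53.1% (SD over the 19 autosomes 0.376 percentage points). Among all listed autosomal cytosines, CA made up 3.11% (3.10 to 3.12) and CG 94.1%. These are shares of listed sites and not rates, since genomic totals for each context were not analysed here. The letters are those of the deposited table, which follows a reference genome of another mouse strain than that of E14 cells. Whether some sites listed as CA were CG in these cells was not tested.

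CA sites carried few reads. The median was 5 reads, the quartiles were 3 and 9, and the mean was 7.70 ± 0.449 (SD over 19 autosomes). CT had a mean of 7.53 and CC of 7.89 reads, both with the same upper quartile of 9. The mean of CA was above that of CT on 17 of 19 autosomes and below that of CC on 17 of 19, but the differences were small, at 0.151 ± 0.243 (SD) and -0.174 ± 0.165 reads. At CG sites the median was 10 and the mean 13.6 reads. The lowest listed count is 2, and 11.5% of CA sites stood at that value, against 3.39% of CG sites. A count of at least 10 reads was reached by 22.7% of CA sites and 51.5% of CG sites, and at least 50 by 0.384% and 2.08%. Only 154 CA sites had 100 reads or more.

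**Figure D1:**
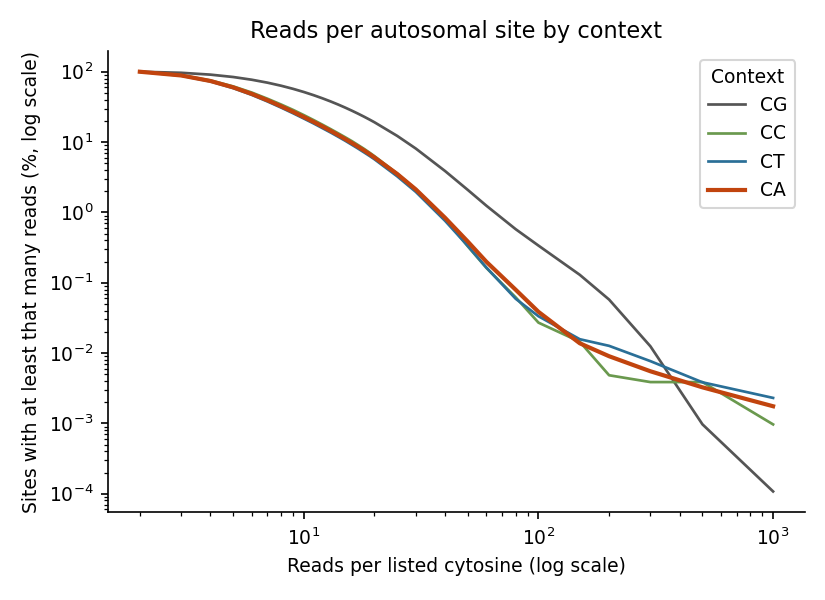
Share of autosomal sites (y axis, percent, log scale) with at least a given number of reads (x axis, log scale), by context. Up to about 100 reads the CA, CT and CC curves run together and lie below CG, with 22.7% of CA and 51.5% of CG sites at 10 reads or more. At 500 reads or more they lie above CG, with 0.00325% of CA and 0.000968% of CG sites.

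At the far end of the distribution CA sites gathered in a few places. The highest CA count was 2899 reads at position 3109983 of chromosome 12, on the plus strand. Positions 3110009 and 3110060 of chromosome 12, both on the minus strand, had 2000 and 1548 reads. The minus-strand sites of chromosome 13 at 77578181 and 77578229 had 2118 and 1413 reads, while the listed CG nearest to them had 6 reads. Position 3005964 of chromosome 18 had 1558 reads. All 6 belonged to the class 1CH. The next 4 were of the class 2CH, on chromosomes 13, 15 and 6, with 623 to 1158 reads. Positions 3372581 and 3372538 of chromosome 13 had partners with exactly their own counts, 1158 and 713 reads. Position 74917226 of chromosome 15 had 797 reads and its partner 20, and position 8680231 of chromosome 6 had 623 and its partner 110. The 10 sites together held 14827 reads, or 0.482% of all CA reads. Leaving out all sites above 162 reads lowered the mean per CA site to 7.64, so the values of the whole set do not rest on them.

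The table divides CH sites into 2 classes, 1CH and 2CH, and the sources used here do not define them. Of the CA sites, 163643 were 1CH and 236081 were 2CH, a 2CH share of 59.1% (58.9 to 59.2). The share was close to that of CT, at 59.9%, and below that of CC, at 78.6%. On single autosomes the CA value lay between 57.9% on chromosome 14 and 60.5% on chromosome 10. Reads did not separate the classes, with a median of 5 in both and means of 7.76 in 1CH and 7.66 in 2CH. CA weighed more in 1CH, where it formed 56.4% of the sites, than in 2CH, where it formed 49.8%. The ranges over autosomes did not overlap, at 55.7% to 57.6% and 48.8% to 51.3%.

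A 2CH site was mostly 1 member of a pair. Of the 2CH CA sites, 85.9% (85.8 to 86.1) had a listed 2CH cytosine on the opposite strand 21 to 25 bp further on in the 3' direction. The offsets of 22 and 23 bp were the most frequent, with partners at 28.5% and 30.3% of the sites, followed by 21 bp with 14.2% and 24 bp with 11.9%. At 23 bp the partner had exactly the same count in 93.9% of cases, and at 22 bp in 90.3%. On the 5' side, at the same distances, 0.316% had an opposite-strand CH site. Among 1CH CA sites 4.76% had an opposite-strand CH site 21 to 25 bp on, with equal counts in 2.26% of these, and at 23 bp there was none. Where the counts are equal, the reads of a 2CH pair appear to be listed at both cytosines. The table does not say which of them was modified. Of the 2CH CA sites with a partner, 88.6% had one of equal count.

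The partner of a CA site was most often another CA. In the 179667 2CH CA sites with a single partner of equal count, that partner was CA in 46.9%, CT in 34.0% and CC in 19.04%. CT sites had a CA partner in 51.9% and CC sites in 53.5%. CA did not pair with itself more often than the other contexts paired with CA.

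**Figure D2:**
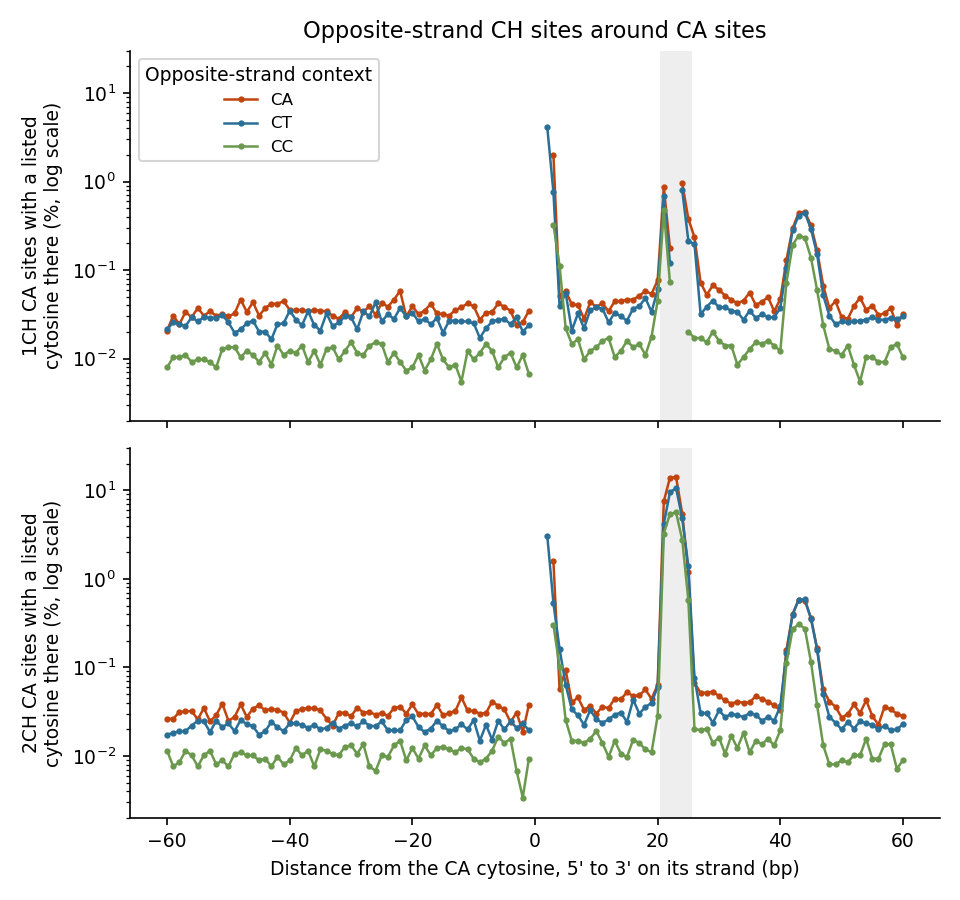
Share of CA sites (y axis, percent, log scale) with a listed CA, CT or CC on the opposite strand at each distance (x axis, bp, counted 5' to 3'), for class 1CH above and 2CH below. Missing points are distances with 0 such sites. Maxima lie at 2 to 3, at 21 to 25 (shaded) and at 42 to 45 bp, all on the 3' side, and the middle one reaches over 10% in 2CH only.

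For CA the strands were listed unequally in 2CH but not in 1CH. Of the 1CH CA sites 50.2% (49.96 to 50.4) were on the plus strand, and the share was above 50% on 10 of 19 autosomes. Of the 2CH CA sites 54.7% (54.5 to 54.9) were on the plus strand, and the share was above 50% on 19 of 19, from 53.3% to 55.6%. For CT the plus-strand share was 50.4% (50.1 to 50.7) in 1CH, just above 50%, and 53.8% (53.6 to 54.0) in 2CH. CC leaned to the minus strand, with 46.7% on the plus strand in 1CH and 27.4% in 2CH. The partner shares restate this imbalance, since each pair has 1 cytosine on each strand. A plus-strand CA had a CC partner in 26.0% of cases and a minus-strand CA in 10.4%, whereas a CA partner was found for 42.5% and 52.4%. The CA partners numbered 42148 on each strand, so the last 2 shares differ only through their totals, 99210 and 80457 sites. CG sites, including the paired class 2CG at 50.1%, were balanced. The strand names of the reference have no biological meaning along a chromosome, and no source used here gives the rule by which the authors chose 1 cytosine among neighbours. Its part in the imbalance was not tested.

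A second kind of pair lay much closer. On the opposite strand 2 bp further on, 13906 CA sites or 3.48% (3.42 to 3.54) had a listed CT, which by the letters of both sites means a CAG step read as CTG on the other strand. At 3 bp, 7010 CA sites (1.75%) had a listed CA, which spells CATG, the same on both strands. A further 2489 had CT at 3 bp, spelling CAAG, and 1245 had CC, spelling CAGG. Together 24350 CA sites, 6.09% (6.02 to 6.17), had an opposite-strand CH site 2 or 3 bp on. By comparison 3202 had one 4 to 10 bp on, and 2372 had one 1 to 10 bp to the 5' side. For opposite-strand CT the count at 2 bp was 144.1 times the median over distances of 46 to 60 bp on either side. Part of such an excess is fixed by sequence, because a G at that place always makes a CT there, and how much was not analysed without the genome. The palindrome TGCA, with the opposite CA 1 bp to the 5' side, was listed on both strands at 146 CA sites.

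These closely facing CA sites carried more reads than the rest. Their median was 10 reads and their mean 13.0, against 5 and 7.36 at the other 375374 CA sites. The median was higher on 19 of 19 autosomes, at 9 to 12 reads against 5 or 6. For CAG the median was 10, for CATG 9, for CAAG 11 and for CAGG 10. Facing sites made up 18.9% of all CA sites with at least 20 reads. CG sites had a median of 12 where both strands of the dyad were listed and 8 where 1 was. With both sites required to be 1CH, so that no count is shared within a 2CH pair, 5138 CA sites remained with a mean of 12.8 reads against 7.59. In the mean, CH neighbours at other distances went with counts about as high. CA sites with an opposite-strand CH site 4 to 10 bp on had a mean of 12.8 reads against 7.66 at the rest, and those with one 1 to 10 bp to the 5' side 13.0 against 7.67. The higher mean was therefore not particular to facing sites. The medians of these neighbour sets, 8 and 7, lay between those of the facing and the other sites. At least 20 reads were reached by 12.8% and 9.87% of them, against 18.7% of facing sites and 5.22% of the sites not facing. A facing site is known only where both strands reached the minimum for listing, and the part of that condition in the difference was not tested.

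Counts on the strands of facing CH sites were related about as closely as in CG dyads. Across the 24350 sites the Spearman correlation between the CA site and the site facing it was 0.25, from 0.17 to 0.30 on single autosomes. In 3290896 CG dyads listed on both strands it was 0.24. Counts differed more than 3-fold at 20.6% of facing CA sites and in 22.3% of CG dyads, and were exactly equal in 5.28% and 4.42%. The facing values are per CA site, so a CATG pair enters once from each strand, whereas a CG dyad enters once. Where the site facing a CA 3 bp on was a CG, in the letters CACG, the correlation was 0.04 over 2546 sites, the median at the CA was 6 reads and the counts differed more than 3-fold in 35.9%. All these sites come from the same column of counts and share local depth, so the correlations are descriptions across sites and carry no p-value.

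The facing pairs were also flanked at fixed distances. Of all CA sites, 12.1% had another CH site on the same strand 20 to 23 bp away in either direction, and 4.20% had one on the opposite strand 42 to 45 bp on. At 30 to 33 bp and 50 to 53 bp the corresponding shares were 0.535% and 0.258%. CA sites with such a same-strand neighbour had 10 reads in the median and 13.3 in the mean, and those with the opposite-strand neighbour at 42 to 45 bp 10 and 13.8. With an opposite-strand neighbour at 50 to 53 bp the median was 7 but the mean was 12.7, against 5 and 7.69 in the remaining sites. Of the facing CA sites 52.7% had 1 of these flanking neighbours, against 11.2% of the other CA sites. Such distances follow from the spacing of the paired sites described above. The partner of a site that faces a CA lies on the CA strand, about 20 bp to the 5' side. Where a pair had equal counts, its outer member also had the reads of its facing member. The flanking shares and reads therefore restate facing and pairing in part, and what goes beyond them was not tested.

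The nearest listed CG was usually close. Its median distance from a CA site was 65 bp, with quartiles of 24 and 179 bp. Over the autosomes the median ran from 51 bp on chromosome 11, which has the most listed CG per megabase, to 80 bp on chromosome 3. A listed CG lay within 100 bp of 61.4% (61.2 to 61.5) of CA sites and within 1 kb of 96.0%. Distances from arbitrary positions were not analysed, so the part of CG density in these values was not tested. CT sites had a median of 68 bp and CC sites of 54 bp. The CA median was below that of CT on 18 of 19 autosomes, by 3.47 ± 1.68 bp (SD), and above that of CC on 19 of 19, by 11.1 ± 1.88 bp. CG sites lay closer to each other, with a median of 35 bp to the nearest listed CG outside their own dyad. Only 16135 CA sites (4.04%) had no listed CG within 1 kb and 849 had none within 5 kb. Seen from the other side, 4.98% of the listed CG sites had a CA site within 100 bp, and these had a median of 11 reads against 10 for the rest.

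Reads at CA sites fell with distance from CG. The mean was between 8.04 and 8.49 reads in every distance class below 100 bp. It was 7.63 ± 0.505 (SD over 19 autosomes) from 100 to under 200 bp, 6.77 ± 0.324 from 200 to under 500 bp, 5.79 ± 0.389 from 500 bp to under 1 kb and 5.17 ± 0.293 from 1 to under 5 kb. The median went from 6 to 4 reads. On single autosomes the means from 1 to under 5 kb, 4.74 to 5.84, lay below all those at 50 to 99 bp, 7.14 to 8.94. CG sites also had fewer reads far from other CG, 6.66 from 1 to under 5 kb, but they were not level below 100 bp. Their mean was 14.4 below 10 bp, 18.5 at 20 to 29 bp and 12.5 at 50 to 99 bp. Count by count, a CA site and its nearest listed CG were only weakly related, with a Spearman correlation of 0.08 across sites.

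**Figure D3:**
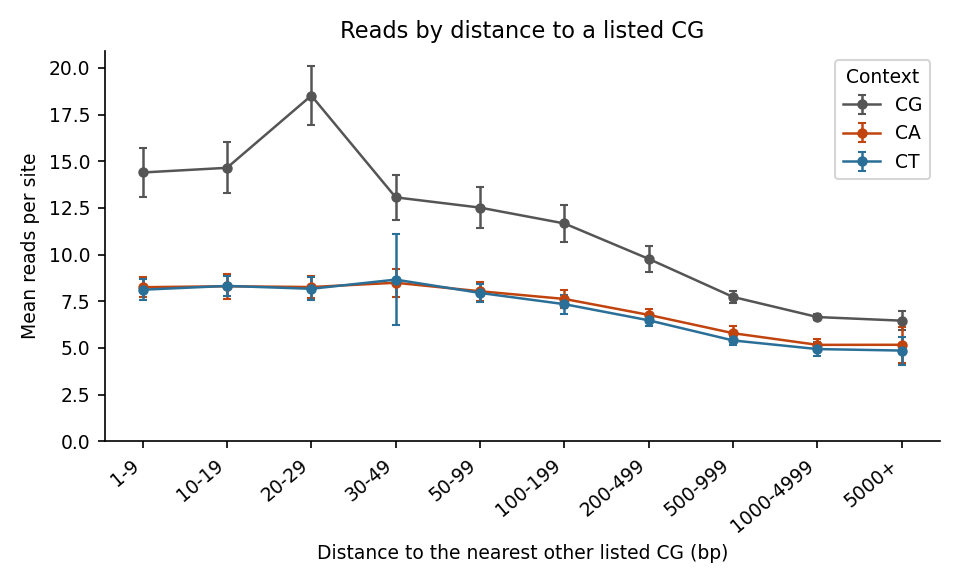
Mean reads per site (y axis) by distance to the nearest listed CG, outside the own dyad for CG sites (x axis, bp). Points are means over all autosomal sites and bars the SD over autosomes with at least 20 sites in the class. CA and CT run together and fall from about 8 reads near CG to about 5 beyond 1 kb.

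At single-base resolution the CG around a CA site had a gap. A listed CG dyad whose same-strand cytosine lay exactly 22 bp on was found at 0 of the 399724 CA sites. The median over the 62 offsets of 30 to 60 bp on either side was 2725.5 sites per offset, and the lowest of these was 2519. At 21 and 23 bp the dyads were also rare, with 1052 and 1006 sites. CT and CC showed the same gap, with 0 sites at 22 bp. The empty offset lies inside the range of 21 to 25 bp at which the partners of 2CH sites were found. The class CGCH, whose sites are all listed as CG, has a code that names both contexts.

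On the near side of the gap CG dyads were in excess at 19 bp. There 5106 CA sites had a listed CG dyad, 1.87 times the median of the 62 offsets and above the highest of them, 3151. In 2CH the ratio at 19 bp was 2.01 and in 1CH 1.66. Beyond the gap the classes differed, with ratios at 24 bp of 1.75 in 1CH and 0.574 in 2CH, and at 25 bp of 1.16 and 0.859. Over all CA sites the ratios at 24 and 25 bp were 1.05 and 0.983, inside the range of the 62 offsets. CT and CC had ratios of 2.18 and 2.85 at 19 bp. Close to the CA, dyads beginning 2, 3 and 4 bp after the CA cytosine were 1.44, 1.43 and 1.36 times as frequent as that median, and those starting 2 and 3 bp before it 0.493 and 0.662 times. Genomic CG frequencies at these offsets were not at hand, and sequence composition next to a CA step can differ from that further away. Whether reads from such a neighbouring CG were listed at the CA was not tested.

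**Figure D4:**
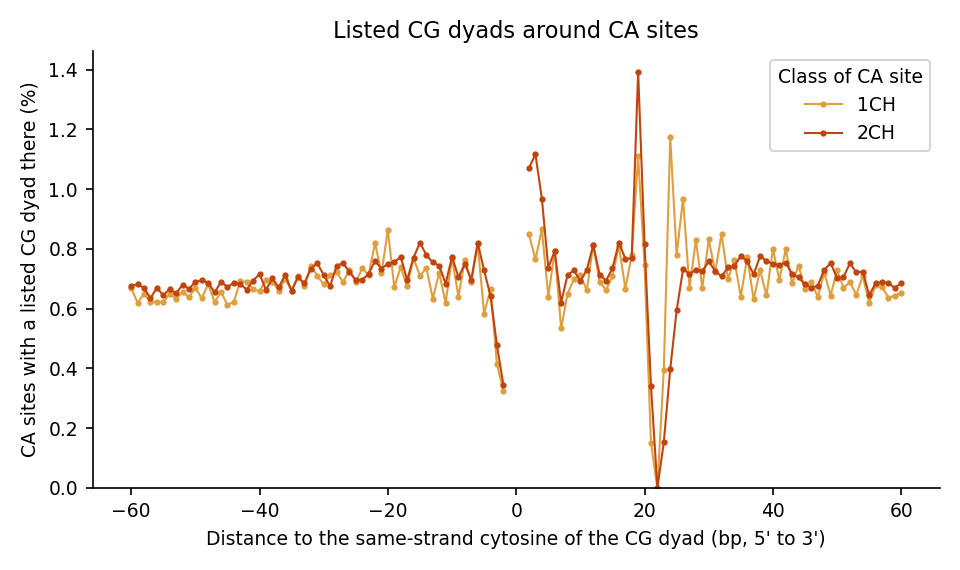
Share of CA sites (y axis, percent) with a listed CG dyad at each distance (x axis, bp, to the dyad's cytosine on the CA strand, 5' to 3'), by class of the CA site. The share is 0 at 22 bp in both classes and highest at 19 bp in 2CH, with a further maximum at 24 bp in 1CH only.

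CA sites were clustered, mainly through pairs. Another CA site lay within 100 bp of 39.1% (39.0 to 39.3), against 28.0% for CT and 19.8% for CC, which are fewer along the same chromosomes. The distance to the nearest other CA site had a median of 426 bp and quartiles of 23 and 2293 bp. Many close neighbours were the partners described above. With each equal-count 2CH pair of CA sites counted once, the share fell to 21.7%, and among 1CH sites alone it was 11.5%. Joined at gaps of up to 100 bp, CA sites formed 314497 groups, of which 77.4% were single sites and 19.3% were 2 sites. Of the groups of 2, 69.4% were on opposite strands 21 to 25 bp apart with the plus-strand site first, and 20.5% were on the same strand. Groups of 3 had a mean of 11.3 reads per site, compared with 6.66 for single sites.

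Groups of 10 or more numbered 40 and held 754 sites. The largest spanned 1006 bp of chromosome 15 from 74916471 to 74917476, with 83 CA sites and 2806 reads. Next came chromosome 17 from 39979952 to 39981330 with 73 sites and 666 reads, and from 39984157 to 39985132 with 51 sites and 506 reads. Chromosome 18 from 3005586 to 3006009 had 30 sites and 2127 reads. Chromosome 8 from 19943114 to 19943889 had 28 sites and 205 reads. The 5 bins of 1 kb with the most CA sites lay in the first 4 of these places, with 39 to 61 CA sites each. The few CG sites of the chromosome 15 bins had means of 2066 and 525.0 reads, and those of the chromosome 18 bin 288.4, far above the 13.6 of autosomal CG. In the bins of chromosome 17, CG sites had means of 26.5 and 19.3 reads. Whether reads of repeated sequence gathered in these places was not tested.

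Across the autosomes, chromosomes 8 and 11 had the most CA sites per megabase, with 302.9 and 290.2. The other 17 had between 119.2 on chromosome 16 and 186.5 on chromosome 17. Relative to the listed CG the order was different. Chromosome 8 had 4.64 CA sites per 100 listed CG, the highest value, and chromosome 14 followed with 4.36. Chromosome 11 had 3.47, near the median of 3.30, and chromosome 10 had the lowest, 2.33. CT gave nearly the same order at a lower level, from 1.49 on chromosome 10 to 3.07 on chromosome 8, with a Spearman correlation with CA of 0.99 over the 19 autosomes. Both ratios share the CG denominator. Chromosome 8 also had the highest mean reads per CA site, 8.54, and the highest share of closely facing CA sites, 7.53%. Chromosome 10 had the lowest share of these, 4.23%. CA reads per site on chromosome 11, 7.59, were at the median of the autosomes, whereas its CG sites had the highest mean, 17.5. The number of copies of a chromosome and its 5hmC per copy cannot be told apart in these counts.

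**Figure D5:**
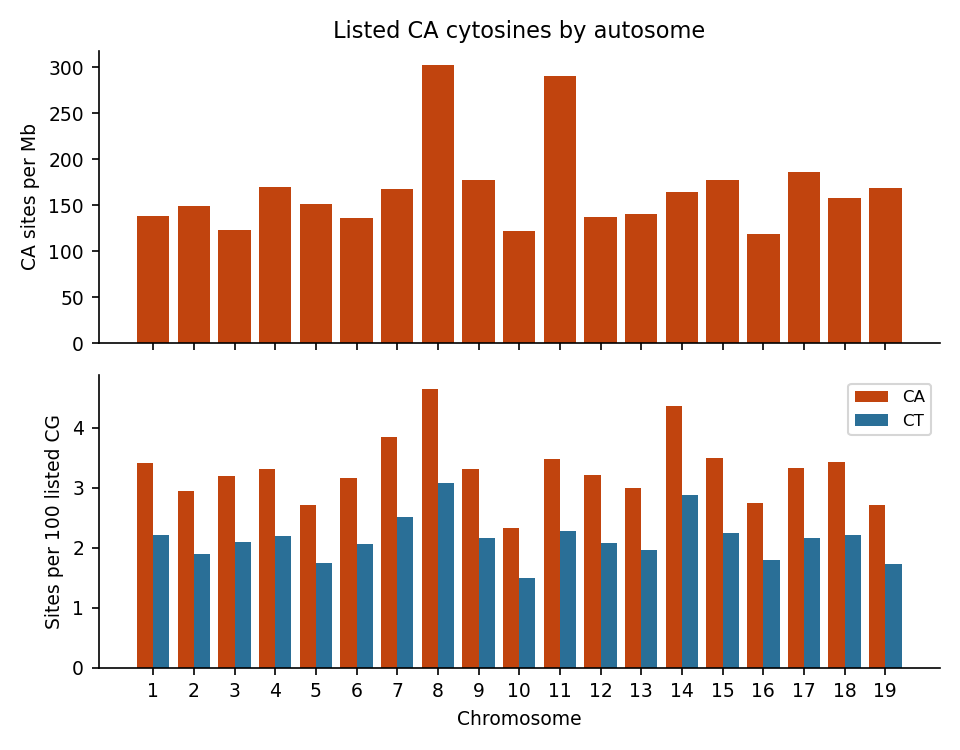
Listed CA cytosines per megabase (upper y axis) and CA and CT cytosines per 100 listed CG (lower y axis) on each autosome (x axis). Chromosomes 8 and 11 stand out per megabase, with 302.9 and 290.2, while per 100 CG chromosomes 8 and 14 are highest and chromosome 10 is lowest.

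Along the chromosomes the CA sites were unevenly spread. A median of 11 CA sites was found in the 24156 windows of 100 kb, with 5% of windows at or below 1 and 5% at or above 52, and 596 windows had none. CA and CG sites per window rose together, with a Spearman correlation of 0.71, but not in proportion. In the fifth of windows with the fewest listed CG there were 7.84 CA sites per 100 CG, and in the fifth with the most there were 2.64. Mean reads per CA site went the other way, from 5.602 to 8.41. Among 19419 windows with at least 100 listed CG, the ratio had a median of 2.83 per 100 CG and a range from 0.860 to 10.6 between the 5th and 95th percentiles. Adjacent windows were alike, with a Spearman correlation of 0.56 over 18171 neighbouring windows, and the correlation of the CA ratio with the CT ratio was 0.78. Both ratios are divided by the same CG count, which alone can make them rise together, so this value describes no link of its own.

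The window with the most CA sites was chromosome 8 from 19900001 to 20000000. It held 672 CA sites with 4894 reads among 1845 listed cytosines, a CA share of 36.4%, and 160.8 CA sites per 100 CG. Its CA sites had a mean of 7.28 reads, near that of all CA sites, while its 418 CG sites had 70.4. A near neighbour, from 19700001 to 19800000, held 190 CA sites at a CA share of 26.6%. Without the first of these windows chromosome 8 still had 297.7 CA sites per megabase and 4.56 per 100 CG. The window of chromosome 17 from 39900001 to 40000000 held 197 CA sites and 13.0% CA.

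The other 7 of the 10 windows with the most CA sites were of another kind, with 150 to 197 CA sites at CA shares of 7.68% to 11.02%. They were chromosome 8 from 34900001, 35800001, 37600001 and 94100001, chromosome 11 from 88500001 and 88600001, and chromosome 4 from 140300001, each 100 kb long. Their CA sites had means of 11.1 to 13.99 reads and their CG sites 14.9 to 22.1. Both contexts were thus above the autosomal means of 7.70 and 13.6 there. They were also above the means of their own chromosomes. For CA and CG these were 8.54 and 16.4 on chromosome 8, 7.59 and 17.5 on chromosome 11, and 8.10 and 13.5 on chromosome 4. Of the 100 windows with the most CA sites, 35 lay on chromosome 8, 19 on chromosome 11 and 13 on chromosome 4. By CA share, among windows with at least 100 listed cytosines, the 4 after the chromosome 8 window had 25.1% to 30.7%. They included chromosome 12 from 116800001, chromosome 4 from 3000001 and chromosome 15 from 74900001, with 46, 47 and 110 CA sites.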

How the data were processed

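Both libraries were made, per the labels' protocols, from 100 ng of DNA cut with AbaSI after glucosylation, sheared to about 300 bp and amplified for 16 PCR cycles. CASAVA 1.8.2, Bowtie and build mm9 are named per the submitters' processing notes. Filters, treatment of PCR copies, the minimum for listing, the rule assigning reads to cytosines and the joining of the libraries have no account in the sources used here. The deposited values are raw read counts by the authors, 1 per listed cytosine, 176006227 reads in all. Cytosines absent from the table have no value.

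Positions were converted to 1-based coordinates. Offsets were counted 5' to 3' on the strand of the CA. Intervals are exact Clopper-Pearson at 95% and treat each listed site as independent. Members of 2CH pairs with equal counts are not independent, and the intervals cover neither that dependence nor replicate error. Without molecular identifiers, PCR copies cannot be told from independent molecules. Densities use the stretch between the outermost listed sites of a chromosome. Windows were counted from position 1. The named sites and regions are the 10 CA sites with the most reads, the 10 windows of 100 kb with the most CA sites, the 5 with the highest CA share, the 5 densest bins of 1 kb and the extreme chromosomes. The largest groups and the closely facing sites were named after their values were seen. The members and rules were chosen with earlier results of these data known. The planned reading of the bases after CA was not run, because no mm9 genome was used here, and gene names were not used because the reference tables describe GRCm38. The functions for opposite-strand offsets, CG dyads and nearest distances were tested on simulated sites, and the others were not. Python 3.11.15, numpy 2.4.6, pandas 2.3.3, scipy 1.17.1 and matplotlib 3.10.9 were used. Alternatives are given in the closing section.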

Additional observations from a re-analysis of the deposited data

How the results depend on the processing

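Over 12 planned results, 37 of 78 alternative values moved by less than the allowed spread (for shares the counting interval, for the site number a factor of 1.5, otherwise 1 SD over autosomes) and 41 moved by more, most of the shares by little because the counting intervals are narrow. Values were sorted only by the size of the move, so a reversal of direction was not tested. With minimums of 5 and 10 reads per site, 239583 and 90720 CA sites remained, with medians of 8 and 14 and means of 10.8 and 17.9 reads. CA then made up 52.5% and 52.7% of CH sites, 59.3% and 58.8% were 2CH, 53.1% and 53.8% were on the plus strand, 40.8% and 41.6% had a CA within 100 bp, 60.4% and 55.2% a CG within 100 bp, and 87.5% and 89.6% of 2CH sites a partner. With 10 reads the median distance to CG was 82 bp and the ratios of chromosomes 11 and 8 to the median autosome in CA sites per Mb were 1.59 and 2.13, against 1.84 and 1.92. The minimums applied to every context, so neighbours were thinned too, and only 51.5% of CG sites had 10 reads or more. These values therefore do not place CA sites with many reads farther from CG. With all listed CG kept, 24.3% of CA sites at 50 to 99 bp had 10 reads or more, against 8.39% from 1 to under 5 kb. With class 1CH only there were 163643 sites, 56.4% of CH, 50.2% plus strand, 11.5% with a close CA and 60.5% with a close CG. With the 5 windows kept in, the mean was 9.85 reads and 39.6% had a close CA. Without chromosomes 8 and 11, 38.8% had a close CA, 60.2% a close CG and 86.3% of 2CH sites a partner. Halving the reads of 2CH sites, with every site still counted in full, gave a mean of 5.44 reads. That drop is fixed by the halving. Distances of 50 bp, 200 bp and 1 kb gave 36.8%, 43.0% and 61.5% with a close CA and 43.3%, 77.5% and 96.0% with a close CG. Neighbours on the same strand only gave 12.6% and 51.6%, and 2CH pairs counted once 21.7%. For the facing sites, chosen after seeing the data like their alternatives, the difference in mean reads was 5.69, and 3.29 to 5.23 over 4 alternatives. CA sites with CH neighbours at other distances differed from the rest about as much in the mean. These means were 12.8 against 7.66, 13.0 against 7.67 and 12.7 against 7.69. Their medians were 8, 7 and 7, against 10 at facing sites. At least 20 reads were reached by 12.8%, 9.87% and 11.5% of them, against 18.7% of facing sites. What caused each change was not tested, apart from the fewer sites a higher minimum leaves. No paired analysis was possible because the table has 1 column of counts that names neither library, and for the same reason no library could be left out.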

Other observations

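CA cytosines outside the autosomes and inside the 5 windows left out had other values. The X chromosome listed 3417 CA sites, 20.9 per megabase, or 2.14 per 100 listed CG, which is below the 2.33 of chromosome 10, the lowest autosome. Their median was 4 reads and the median distance to the nearest listed CG was 288 bp, against 51 to 80 bp on the autosomes. The Y chromosome listed 67 CA sites with 422 reads. Mitochondrial DNA listed 1138 CA sites with a median of 17 reads. There 74.1% were on the plus strand and 23.4% were of the class 2CH, compared with 52.9% and 59.1% of the autosomal members. The copies of mitochondrial DNA and the cytosines on each of its strands were not analysed, and their part in these values was not tested. The 5 windows left out held 3214 CA sites whose median was 8 and whose mean was 276.7 reads, the highest count being 47485. Those windows were set apart with earlier results of these data known, so their high reads are not an independent observation.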
